A study of Homo sapiens with 4 samples.

Results

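The Rab GTPases examined here are the 64 genes whose symbol is RAB followed by a number and at most 1 further letter, out of 51103 genes in the deposited tables. Their polyadenylated RNA was measured in SCC-15, an established human cell line labelled as oral squamous cell carcinoma. There were 2 libraries of cells with lentiviral REEP6 overexpression and 2 libraries of the negative control, labelled NC, for which no control vector is named. The sources used here do not state the promoter that drives REEP6, the copy number or whether the infected cells are a single clone. REEP6 codes for an endoplasmic reticulum membrane protein of the receptor expression-enhancing family. The comparison asked which genes respond to it. Whether the replicates come from different cultures is not stated, and p-values therefore cover only the spread between these libraries, which may be technical.

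Rab proteins are small GTPases that mark membranes. In the GTP-bound state a Rab sits in a membrane through prenyl groups and recruits effectors such as tethers, motor adaptors and fusion factors. Exchange factors load GTP, GTPase-activating proteins (most with a TBC domain) end the active state, GDP dissociation inhibitors extract the inactive protein, and Rab escort proteins present new Rabs for prenylation. Different Rabs work at the Golgi, at early, late and recycling endosomes, at lysosomes, on secretory vesicles and at the cilium.

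The windows around the transcription starts of the 3 Rab genes that fell are shown because these are the RNAs that differed most clearly between the groups. The sequences are from RefSeq (GRCh38.p14) and run from 250 bases before to 50 bases after each start, on the plus strand. RAB27B has 2 starts in RefSeq, with windows at chr18:54717607-54717906 and chr18:54828227-54828526. RAB8B has a window at chr15:63189356-63189655 and RAB18 at chr10:27504054-27504353. Capitals mark matches, on either strand, to any of 6 motifs that do not contain each other, namely the GC box (GGGCGG), the CCAAT box (CCAAT), the TATA box (TATAAA), an E-box (CACGTG), the AP-1 site (TGANTCA) and the cAMP response element (TGACGTCA).
RAB27B upstream start: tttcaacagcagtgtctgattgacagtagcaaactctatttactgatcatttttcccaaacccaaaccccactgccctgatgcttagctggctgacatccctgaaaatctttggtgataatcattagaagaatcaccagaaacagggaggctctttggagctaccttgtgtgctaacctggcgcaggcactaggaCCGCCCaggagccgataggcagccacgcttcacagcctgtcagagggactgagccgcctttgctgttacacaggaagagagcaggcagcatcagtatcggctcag
RAB27B downstream start: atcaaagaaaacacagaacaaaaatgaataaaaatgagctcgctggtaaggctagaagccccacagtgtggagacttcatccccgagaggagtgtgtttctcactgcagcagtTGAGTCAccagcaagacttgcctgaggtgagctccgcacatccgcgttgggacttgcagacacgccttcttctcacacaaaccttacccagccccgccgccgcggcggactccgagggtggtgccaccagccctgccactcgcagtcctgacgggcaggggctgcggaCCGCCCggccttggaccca
RAB8B: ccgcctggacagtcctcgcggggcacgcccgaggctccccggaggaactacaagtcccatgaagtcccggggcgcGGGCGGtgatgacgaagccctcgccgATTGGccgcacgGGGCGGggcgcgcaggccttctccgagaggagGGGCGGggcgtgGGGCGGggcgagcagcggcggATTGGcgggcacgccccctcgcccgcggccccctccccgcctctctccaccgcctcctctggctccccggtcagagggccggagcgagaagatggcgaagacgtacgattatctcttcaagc
RAB18: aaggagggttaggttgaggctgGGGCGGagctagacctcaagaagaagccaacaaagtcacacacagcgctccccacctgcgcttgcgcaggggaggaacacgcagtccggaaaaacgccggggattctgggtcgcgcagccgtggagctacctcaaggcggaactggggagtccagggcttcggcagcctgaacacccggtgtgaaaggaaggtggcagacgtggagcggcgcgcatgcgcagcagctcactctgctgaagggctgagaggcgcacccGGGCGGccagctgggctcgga
The RAB27B windows had a GC content of 51.0% at the upstream start and 59.0% at the downstream start, the RAB8B window 73.3% and the RAB18 window 65.0%, beside a median of 64.0% over 71 windows of 50 Rab genes and 58.7% over all 35116 windows. The ratio of observed to expected CpG was 0.309 in the upstream RAB27B window, 0.656 in the downstream one, 0.942 for RAB8B and 0.745 for RAB18. The GC box occurred in 52 of 71 Rab windows (73.2%) and in 45.0% of all windows. It occurred 4 times for RAB8B, 2 times for RAB18 and 1 time in each RAB27B window. The AP-1 letters stood in the downstream RAB27B window, in 11.3% of Rab windows and in 7.71% of all windows. RAB8B held 2 CCAAT boxes, a motif found in 31.0% of Rab windows and 34.6% of all. TATA boxes (8.45% of Rab windows, 11.5% of all), E-boxes (8.45% and 7.26%) and cAMP response elements (1.41% and 1.85%) were in none of the 4 printed windows. These matches describe the letters only. The files measure RNA per gene, so it is not known which RAB27B start was used.

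The libraries held 12856256 to 15208629 counts assigned to genes. REEP6 RNA was more abundant with overexpression. REEP6 (ENSG00000115255) had 20.0 and 20.9 FPKM (fragments per kilobase of gene length, scaled to library size) with overexpression, against 11.1 and 12.6 FPKM in the control. The log2 fold change was 0.82 ± 0.108 (SE) with an edgeR adjusted p of 0.00119. Mitochondrially encoded genes took 5.81% and 6.02% of counts with REEP6, against 3.90% and 5.44% in the control. The squamous label did not match the listed markers. Of 9 squamous or general epithelial markers 8 averaged below 1 FPKM, KRT5, KRT14, KRT17, KRT6A and TP63 among them, while the simple-epithelial keratins KRT8 and KRT18 averaged 176 and 203 FPKM and KRT19 averaged 0.0362 FPKM. KRT18 was called higher with REEP6 (log2 fold change 0.36, edgeR adjusted p 0.0123). Of 7 neuroendocrine markers 4 were measured, with a summed level of 268 and 236 FPKM with REEP6, against 441 and 436 FPKM in the control. SCG2 alone passed the test, with 188 and 172 FPKM with REEP6, against 363 and 371 FPKM in the control. CHGA, CHGB and SYP, the other measured ones, had log2 fold changes of 0.27, -0.16 and -0.02 and were not called, and INSM1 was at 0. Of 5 fibroblast markers LUM and PDGFRB were measured and both fell, while COL1A1, COL1A2 and DCN averaged 0.322, 0.0138 and 0.00256 FPKM. The summed level of the list was 2.36 and 2.83 FPKM with REEP6, against 9.17 and 10.0 FPKM in the control. The 3 endothelial and 4 melanocyte markers all averaged below 1 FPKM, as did 3 of 4 leukocyte markers.

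Most Rab genes differed little between the groups. Of 64 Rab genes 47 were measured, meaning at least 1 FPKM in at least 2 libraries. By edgeR's quasi-likelihood test at a Benjamini-Hochberg adjusted p of 0.05 over all 13077 measured genes, RAB27B, RAB8B and RAB18 fell and RAB15 rose with REEP6. These 4 of 47 genes are 8.51%, beside 25.1% of all measured genes. By direction, 1 Rab gene was higher beside 10.9% of all genes, and 3 were lower beside 14.2%. The median log2 fold change was 0.10 for the Rab genes and -0.01 for all genes, and the median absolute log2 fold change 0.19 and 0.26. Of the Rab genes 43 lay within 0.5 on the log2 scale (91.5%), beside 78.4% of all measured genes. At an unadjusted edgeR p under 0.05 there were 12 Rab genes, 8 higher and 4 lower, beside 5072 of 13077 genes. DESeq2 and limma on log2(FPKM + 1) each called 3 Rab genes, RAB27B, RAB8B and RAB18.

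**Figure D1:**
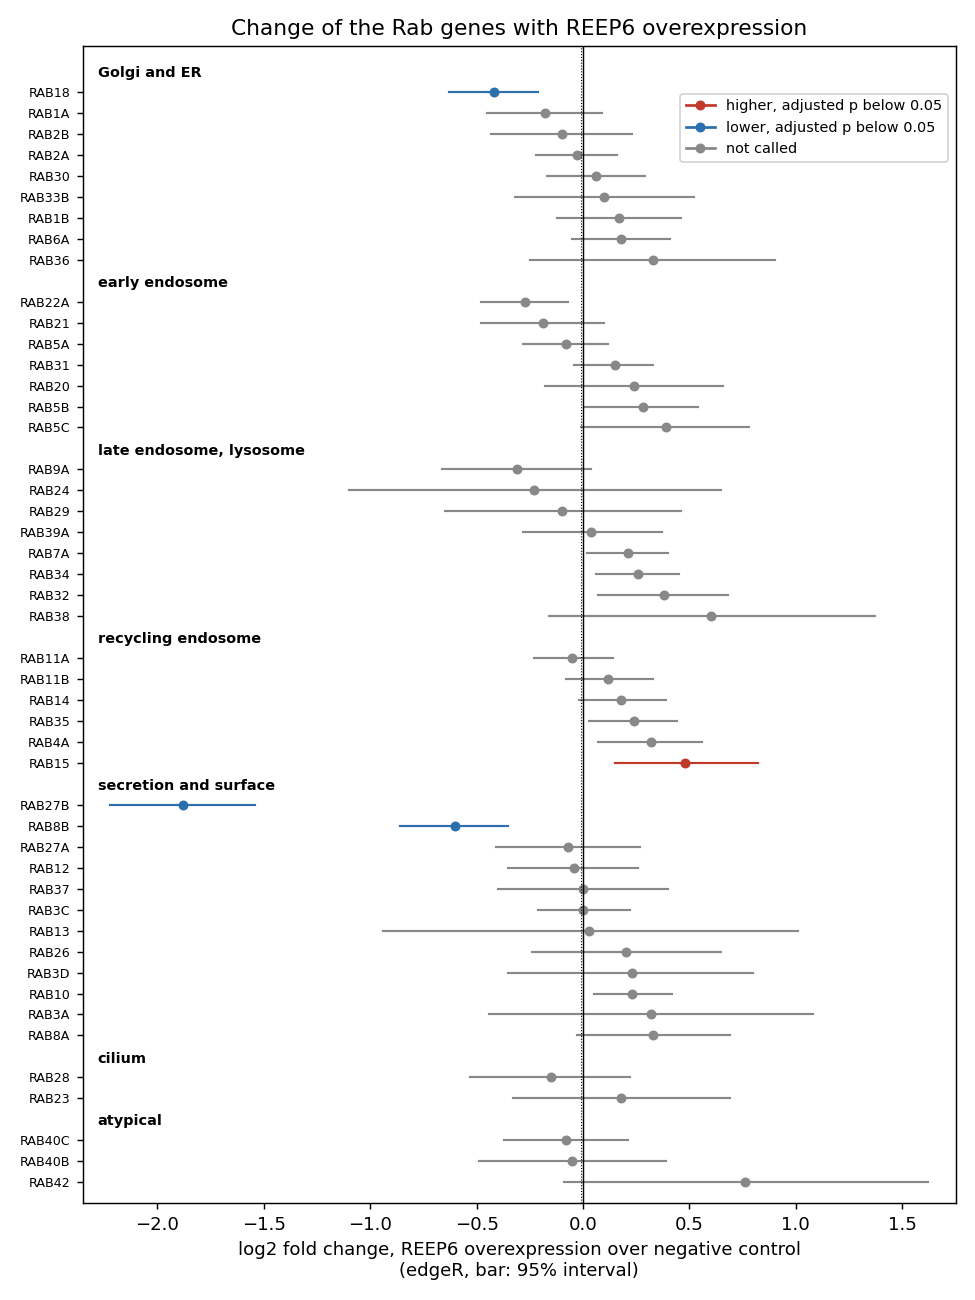
Log2 fold change (x axis, REEP6 overexpression over negative control, edgeR) of the 47 measured Rab genes, grouped by role; points are estimates, bars 95% intervals, colours the call at an adjusted p of 0.05, and the dotted line the median of all genes (-0.01). RAB27B stands at -1.88, and 43 of the 47 genes lie within 0.5 of 0.

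The levels spanned a wide range, and a few genes carried most of the Rab RNA. RAB7A was highest, with a mean over the 4 libraries of 111 FPKM, followed by RAB10 with 61.2 FPKM. The 10 most abundant Rab genes held 65.0% and 64.7% of the summed Rab FPKM with REEP6, against 64.1% and 62.9% in the control. By mean level 15 genes reached 10 FPKM, 31 lay from 1 to below 10 FPKM, 14 lay above 0 and below 1 FPKM, and 4 had no count in any library. The 4 called genes were all in the band from 1 to below 10 FPKM. In the order of levels, the 4 libraries of neighbours overlapped for all but 3 of 46 neighbouring pairs: RAB7A lay above RAB10, RAB10 above RAB11B, and RAB35 above RAB5B in every library. The summed Rab FPKM was 704 and 682 with REEP6, against 663 and 655 in the control, and the summed FPKM of all genes was also larger, 288404 and 287580 against 262497 and 273154.

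**Figure D2:**
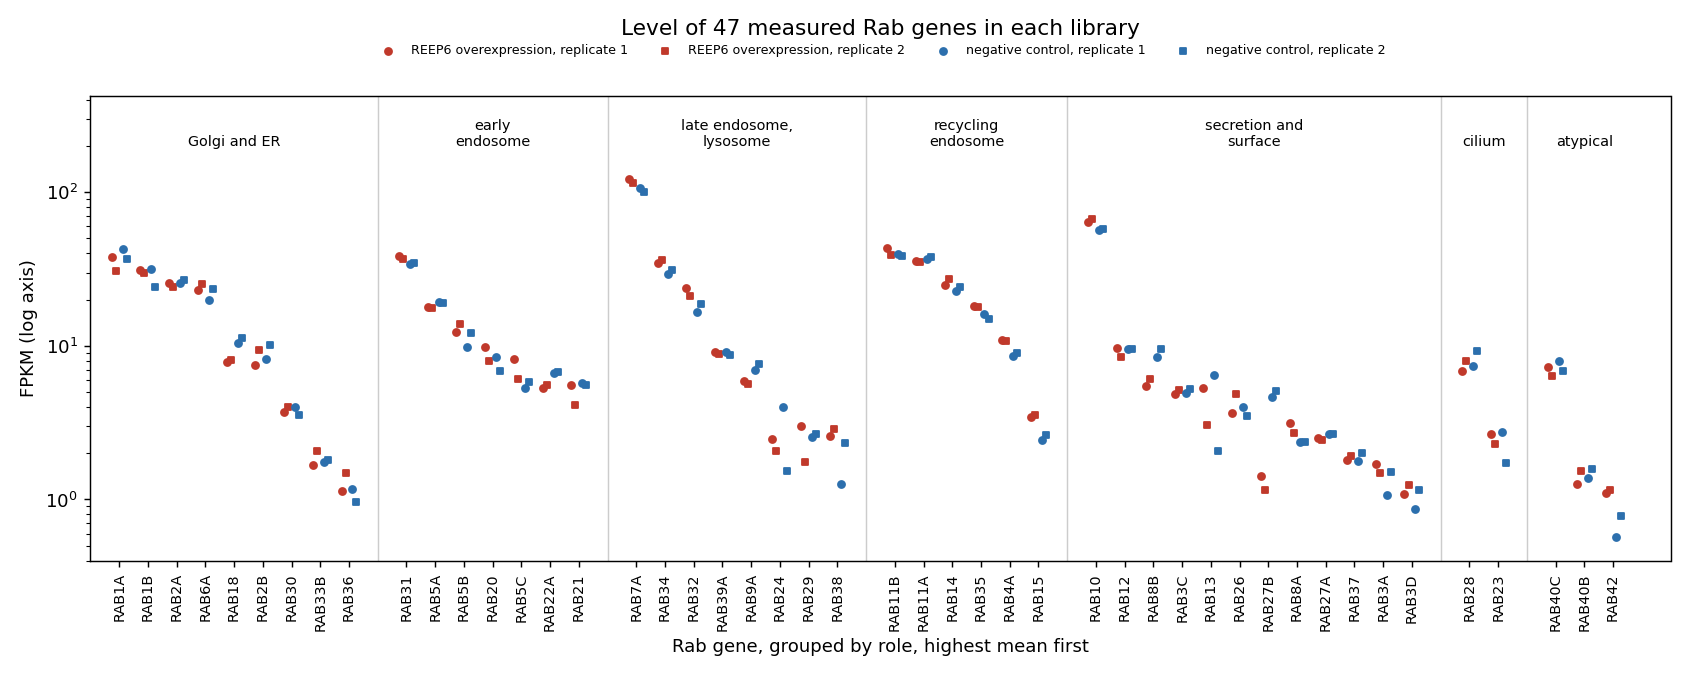
FPKM (log axis) of the 47 measured Rab genes in each of the 4 libraries, grouped by role and ordered by mean level; red is REEP6 overexpression, blue negative control, circles replicate 1, squares replicate 2. RAB7A has the highest mean (111 FPKM), and the REEP6 libraries of RAB27B (1.43 and 1.16 FPKM) lie far below its controls.

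Among the 12 measured Rab genes of secretion and surface delivery, 2 fell (16.7%, beside 14.2% of all genes). RAB27B (ENSG00000041353, chromosome 18, 54717860 to 54895516, plus strand, GRCh38) docks secretory granules and exosome-bearing compartments at the plasma membrane. It had 141 and 115 counts with REEP6, against 444 and 576 counts in the control. On the per-length scale this was 1.43 and 1.16 FPKM with REEP6, against 4.65 and 5.10 FPKM in the control. Both REEP6 libraries were well below both controls. The group means were 1.30 ± 0.191 FPKM and 4.87 ± 0.318 FPKM (SD, n = 2 each). The edgeR estimate was a 3.68-fold lower level with REEP6, a log2 fold change of -1.88 ± 0.154 (SE) with an edgeR adjusted p of 0.000141. Leaving out any 1 library gave log2 fold changes between -2.05 and -1.73. In bulk RNA, fewer cells that make RAB27B and less RAB27B RNA per cell cannot be told apart. LUM, PDGFRB and SCG2, named above, were lower in the same libraries. CHGA, CHGB and SYP were not called, and KRT18 was called higher. The part of these genes in the RAB27B result was not tested.

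RAB8B (ENSG00000166128, chromosome 15, 63189469 to 63267782, plus strand), a Rab of polarised membrane delivery, was 5.51 and 6.10 FPKM with REEP6, against 8.41 and 9.56 FPKM in the control. The groups did not overlap, which also held for 17.0% of measured Rab genes and 35.3% of all genes with REEP6 below the control. RAB8B was 1.52-fold lower, with a log2 fold change of -0.60 ± 0.113 (SE) and an edgeR adjusted p of 0.00528. RAB10, which delivers cargo such as glucose transporters to the surface, had 63.8 and 67.4 FPKM with REEP6, against 56.4 and 57.4 FPKM in the control. Its REEP6 libraries were the higher ones, as for 29.8% of measured Rab genes and 28.2% of all genes, but its edgeR adjusted p was 0.0643 (log2 fold change 0.23, 95% interval 0.05 to 0.42). The Rab3 genes serve regulated exocytosis, chiefly in neurons and endocrine cells. RAB3C was the most abundant of them, with 4.89 and 5.15 FPKM with REEP6, against 4.94 and 5.27 FPKM in the control, a log2 fold change of 0.00 (95% interval -0.21 to 0.22). RAB13, a Rab of tight junction traffic, showed large scatter, with 5.33 and 3.06 FPKM with REEP6, against 6.42 and 2.06 FPKM in the control, and no difference could be read from it. RAB37 (log2 fold change 0.00), RAB12 (-0.04), RAB26 (0.20), RAB3A (0.32) and RAB3D (0.23), other members of this role, were not called.

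Of 9 measured Rab genes of the Golgi and endoplasmic reticulum RAB18 fell (11.1%, beside 14.2% of all genes). RAB18 (ENSG00000099246, chromosome 10, 27504174 to 27542237, plus strand) acts at the endoplasmic reticulum and on lipid droplets, and its loss causes Warburg Micro syndrome. It had 7.88 and 8.06 FPKM with REEP6, against 10.5 and 11.2 FPKM in the control, with no overlap. RAB18 was 1.34-fold lower (log2 fold change -0.42 ± 0.0926 SE, edgeR adjusted p 0.0108), with log2 fold changes between -0.46 and -0.35 when any 1 library was left out. RAB1A, which carries vesicles from the endoplasmic reticulum to the Golgi, had 38.0 and 30.8 FPKM with REEP6, against 42.6 and 36.8 FPKM in the control. These ranges overlapped, and the edgeR adjusted p was 0.298 (log2 fold change -0.18, 95% interval -0.45 to 0.09). Its paralog RAB1B had 31.4 and 29.9 FPKM with REEP6, against 31.7 and 24.0 FPKM in the control. RAB2A and RAB6A, which tether and move Golgi membranes, averaged 25.5 and 23.0 FPKM over the 4 libraries, with log2 fold changes of -0.03 and 0.18. The other measured genes, RAB2B, RAB30, RAB33B and RAB36, had log2 fold changes from -0.10 to 0.33, and none of these 4 passed the edgeR threshold.

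Among 6 measured recycling-endosome genes RAB15 rose (16.7%, beside 10.9% of all genes). RAB15 (ENSG00000139998, chromosome 14, 64945814 to 64973226, minus strand), known for slowing transferrin receptor recycling, had 3.43 and 3.54 FPKM with REEP6, against 2.44 and 2.64 FPKM in the control. It was 1.40-fold higher, a log2 fold change of 0.48 ± 0.152 (SE) with an edgeR adjusted p of 0.0432. This call was close to the threshold and ended without any 1 library (edgeR adjusted p 0.0556 to 0.153), with DESeq2 (adjusted p 0.0937) and with limma (adjusted p 0.0743), while the log2 fold change stayed between 0.43 and 0.57 without any 1 library. RAB11A and RAB11B, the main Rabs of slow recycling, were abundant. RAB11A had 35.8 and 35.3 FPKM with REEP6, against 36.9 and 37.9 FPKM in the control (log2 fold change -0.05, 95% interval -0.23 to 0.14). RAB11B had 43.5 and 39.3 FPKM with REEP6, against 39.4 and 38.2 FPKM in the control (log2 fold change 0.12, 95% interval -0.08 to 0.33). The groups overlapped for RAB11B, and the REEP6 libraries lay just below the controls for RAB11A. RAB4A, the Rab of rapid recycling, and RAB35, which acts between the surface and endosomes, were higher in both REEP6 libraries than in both controls, with log2 fold changes of 0.32 and 0.24 and edgeR adjusted p of 0.0599 and 0.0866. RAB14, which links the Golgi and endosomes, had a log2 fold change of 0.18.

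None of the 7 early-endosome genes was called by edgeR in the fit reported, by DESeq2 or by limma. The same held for the 8 measured genes of late endosomes, lysosomes and autophagosomes. Of all measured genes edgeR called 25.1%, DESeq2 19.6% and limma 14.6%. At an unadjusted edgeR p under 0.05 there were 2 in the first group and 3 in the second, beside 5072 of 13077 measured genes. The 2 were RAB5B (log2 fold change 0.28) and RAB22A (-0.27), and the 3 were RAB7A, RAB34 and RAB32. RAB22A was called lower in some other settings, such as scaling by library totals and equal FPKM sums. RAB7A, which directs late endosomes to lysosomes, had 122 and 114 FPKM with REEP6, against 107 and 101 FPKM in the control. RAB7A was thus higher in both REEP6 libraries, with a log2 fold change of 0.21 (95% interval 0.02 to 0.40) and an edgeR adjusted p of 0.0933. RAB34, a Rab of lysosome position and ciliogenesis, had a log2 fold change of 0.26 (edgeR adjusted p 0.0567), and RAB32, which serves lysosome-related organelles, 0.38. RAB34 was called in some other settings, such as median-of-ratios scaling. RAB31, which carries cargo between the Golgi and endosomes, had 38.3 and 36.6 FPKM with REEP6, against 34.2 and 34.7 FPKM in the control (log2 fold change 0.15, 95% interval -0.04 to 0.33). RAB5A, the core Rab of early endosome fusion, had a log2 fold change of -0.08, RAB21 -0.19, RAB20 0.24 and RAB5C 0.39. RAB9A, which returns mannose 6-phosphate receptors to the Golgi, was lower in both REEP6 libraries with a log2 fold change of -0.31 and an edgeR adjusted p of 0.178. RAB39A, RAB24 and RAB29 had overlapping groups, with log2 fold changes of 0.04, -0.23 and -0.10. RAB24, linked to autophagy, ranged from 1.53 to 3.99 FPKM within the control alone. RAB38, a Rab of melanosomes, averaged 2.73 ± 0.209 FPKM with REEP6 and 1.80 ± 0.749 FPKM in the control (SD, n = 2 each), where replicate 1 was low at 1.27 FPKM. The late-endosome group made up 28.9% and 28.3% of the summed Rab FPKM with REEP6, against 26.6% and 26.5% in the control, and the Golgi group 20.1% and 20.1% with REEP6, against 22.2% and 21.4%.

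The 2 ciliary genes did not pass. RAB28, mutated in cone-rod dystrophy, had a log2 fold change of -0.15, and RAB23, a negative regulator of Hedgehog signalling, 0.18. Of the atypical genes, RAB40B and RAB40C, whose proteins carry a SOCS box, had log2 fold changes of -0.05 and -0.08. RAB42 had 32 and 34 counts with REEP6, against 16 and 26 counts in the control, and was not called. It passed the filter only through the REEP6 libraries, where it is higher, so the values are a description.

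The other 17 Rab genes were below the low-value filter. RAB19, RAB44, RAB1C and RAB6D had 0 counts in all 4 libraries, where 0 allows up to 3 counts in a library, or 0.197 to 0.233 CPM, for counting error only. RAB1C is annotated as a processed pseudogene. RAB25 and RAB17, the Rabs best known from polarised epithelia, had 1 and 0 counts with REEP6 against 0 and 0 in the control (RAB25), and 1 and 0 with REEP6 against 5 and 0 in the control (RAB17). RAB3B had 10 and 12 counts with REEP6, against 1 and 2 counts in the control. RAB6B, a Golgi Rab of neurons, had 61 and 82 counts with REEP6, against 44 and 45 in the control. Without the filter edgeR called these 2 genes higher, with adjusted p of 0.0322 (RAB3B) and 0.0297 (RAB6B). RAB4B (9 and 12 counts with REEP6, against 26 and 18 in the control) and RAB43 (42 and 44 counts, against 55 and 44) share 39.6% and 79.3% of their exon bases with other annotated genes, so their counts are uncertain. RAB40A, RAB41, RAB39B, RAB7B, RAB33A, RAB9B and RAB6C each averaged below 1 FPKM. In all 8 Rab genes share over 25% of their exon bases with another gene; the measured ones are RAB1B, RAB5C, RAB8A, RAB24 and RAB23.

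Paralogs with the same Rab number could be compared within each library as a ratio of FPKM. Of 15 Rab numbers with lettered symbols, RAB22 among them with 1 gene only, 8 had at least 2 measured members, giving 12 pairs. RAB27A, the paralog known from melanosome and lytic granule transport, had 2.52 and 2.45 FPKM with REEP6, against 2.68 and 2.65 FPKM in the control (log2 fold change -0.07, 95% interval -0.41 to 0.27). RAB27A therefore made up 63.7% and 67.8% of the RAB27 level with REEP6, against 36.6% and 34.2% in the control, so that the order of the paralogs was opposite in the groups. RAB8A had 3.13 and 2.72 FPKM with REEP6, against 2.37 and 2.37 FPKM in the control (log2 fold change 0.33, edgeR adjusted p 0.159), and its share of the RAB8 level was 36.2% and 30.9% with REEP6, against 22.0% and 19.9% in the control. The ratio of RAB5A to RAB5C was 2.20 and 2.89 with REEP6, against 3.60 and 3.31 in the control, although neither gene was called. In 8 of the 12 pairs the ratios of the groups did not overlap, counting both directions. The levels of all measured genes did not overlap in 28.2% with REEP6 above and in a further 35.3% with REEP6 below. Levels overlapped in only 4771 of 13077 genes, so a lack of overlap was the common case. Pairs within a family can share genes, and levels are not ratios, so these shares are only a rough background. No test was run on the ratios.

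**Figure D3:**
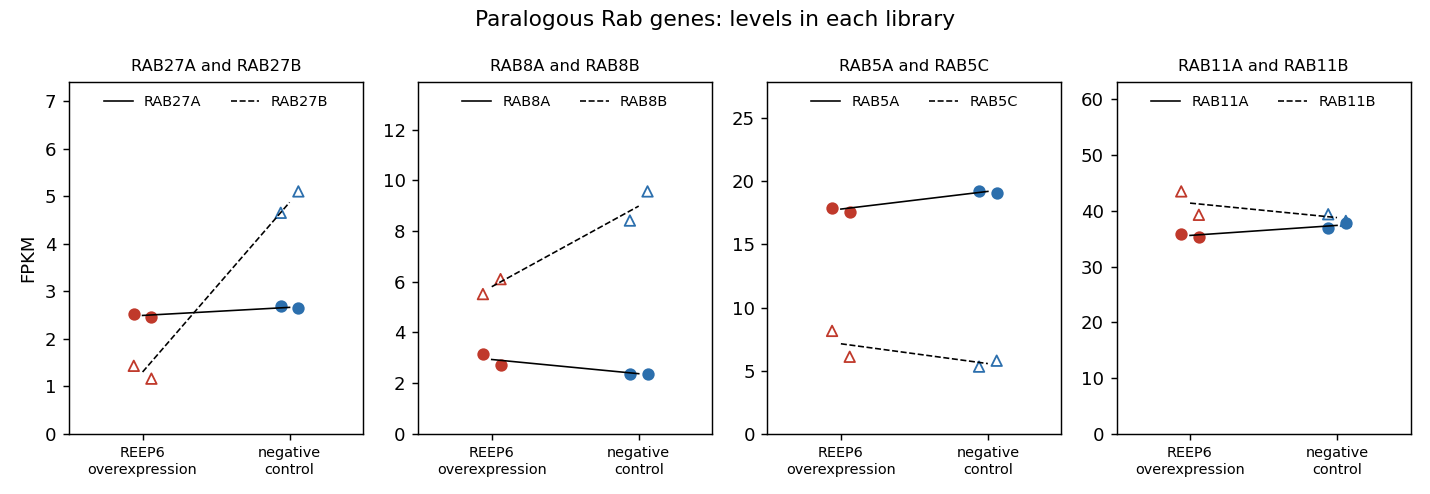
FPKM (y axis, from 0) of 4 pairs of paralogous Rab genes in the REEP6 libraries (red, left) and the negative controls (blue, right); filled circles and solid lines are the first gene, open triangles and dashed lines the second, and lines join group means. RAB27B lies below RAB27A with REEP6 and above it in the controls, while RAB8A and RAB8B draw closer with REEP6.

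Genes that act on Rabs or with them were listed by role, together with 8 Rab-like genes outside the naming rule. Of these 139 genes, called regulators and effectors below, 116 were measured and 43 were called (37.1%, beside 25.1% of all measured genes). The Rab-like genes gave 7 of the measured genes, of which 1 was called (14.3%). Higher with REEP6 were 11 of the 116, beside 10.9% of all genes, and lower were 32 of the 116, beside 14.2%. Lower calls were also the larger part among all genes, with 1854 of 3276. Their median log2 fold change was -0.09, beside -0.01 for all genes. With FPKM scaled to equal sums the median of all genes moved to -0.14, and 6 of these genes were higher and 40 lower.

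Of 8 measured genes for escort, prenylation and membrane extraction 2 were called (25%, beside 25.1% of all genes), the escort protein genes CHM and CHML, both lower. CHM, mutated in choroideremia, had 2.33 and 2.65 FPKM with REEP6, against 4.0 and 4.05 FPKM in the control (log2 fold change -0.66 ± 0.122 SE, edgeR adjusted p 0.0049). CHML had 6.05 and 5.88 FPKM with REEP6, against 7.67 and 8.35 FPKM in the control (log2 fold change -0.40 ± 0.0971 SE, edgeR adjusted p 0.0162), a call that ended without REEP6 replicate 2 or without control replicate 2 (edgeR adjusted p 0.0754 and 0.0719). The controls were higher in every library for both. GDI2, a GDP dissociation inhibitor, had a log2 fold change of 0.02.

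Of 34 measured exchange factors 11 were called (32.4%, beside 25.1% of all genes). Of these, 4 rose, beside 10.9% of all genes, and 7 fell, beside 14.2%. ST5, also called DENND2B and known to activate RAB13, rose 1.81-fold, with 6.76 and 6.69 FPKM with REEP6, against 3.96 and 3.61 FPKM in the control (edgeR adjusted p 0.000574). DENND5B fell by 0.67 on the log2 scale and SBF2 by 0.54. RAB3GAP1, a subunit of the complex that activates RAB18, had 11.3 and 12 FPKM with REEP6, against 16.3 and 16.6 FPKM in the control (log2 fold change -0.47, edgeR adjusted p 0.00484). Its partner subunit RAB3GAP2 had a log2 fold change of -0.28 and an edgeR adjusted p of 0.0911. MADD, which activates RAB3 and RAB27 proteins, fell by 0.32 on the log2 scale (edgeR adjusted p 0.0188). RAB3GAP1, RAB3GAP2 and MADD were picked after their values were seen.

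Of 28 measured GTPase-activating proteins 11 were called (39.3%, beside 25.1% of all genes). Of these, 2 rose, beside 10.9% of all genes, and 9 fell, beside 14.2%. RABGAP1L fell by 0.69 on the log2 scale, TBC1D9 by 0.72 and TBC1D8 by 0.56. TBC1D1, an insulin-signal target that acts on RAB10 and its relatives, rose by 0.62 on the log2 scale, with 4.99 and 4.81 FPKM with REEP6, against 3.09 and 3.41 FPKM in the control.

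Of 39 measured effectors 18 were called (46.2%, beside 25.1% of all genes). Of these, 4 rose, beside 10.9% of all genes, and 14 fell, beside 14.2%. GCC2, a golgin of the trans-Golgi, fell by 0.66 on the log2 scale, the RAB5 effector APPL1 by 0.59 and RABEP2, a rabaptin of early endosomes, by 0.77. RAB11FIP4, an effector of RAB11, rose by 0.62. Effectors that bind RAB27 were singled out after the RAB27B value was seen. MLPH, the link between RAB27A and myosin Va, had 22.2 and 25.4 FPKM with REEP6, against 30.7 and 31.5 FPKM in the control, and fell by 0.36 on the log2 scale (edgeR adjusted p 0.019). MYO5A, the myosin Va gene itself, fell by 0.28, close to the threshold (edgeR adjusted p 0.0498). RPH3AL, which binds RAB27 and RAB3 proteins on granules, had 6.96 and 7.04 FPKM with REEP6, against 7.22 and 6.08 FPKM in the control, with overlapping groups and a log2 fold change of 0.10. SYTL4, which attaches granules to the plasma membrane, had 0.926 and 0.769 FPKM with REEP6, against 1.79 and 1.56 FPKM in the control. SYTL2 had 0.745 and 0.955 FPKM with REEP6, against 1.41 and 1.34 FPKM in the control. SYTL4 and SYTL2 are among the 14 lower effectors, but they passed the low-value filter only through the controls, where they are higher, so their calls are given as a description. SYTL5 had a log2 fold change of -0.16 and was not called, and SYTL1, SYTL3, RPH3A and UNC13D were below the filter. Of 8 Rab-like genes outside the naming rule 7 were measured, and IFT22, a subunit of the intraflagellar transport particle, rose by 0.42 (edgeR adjusted p 0.0349), a call that ended with DESeq2, limma, equal FPKM sums, without REEP6 replicate 2 and without control replicate 1, at log2 fold changes of 0.44, 0.35, 0.29, 0.29 and 0.37.

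**Figure D4:**
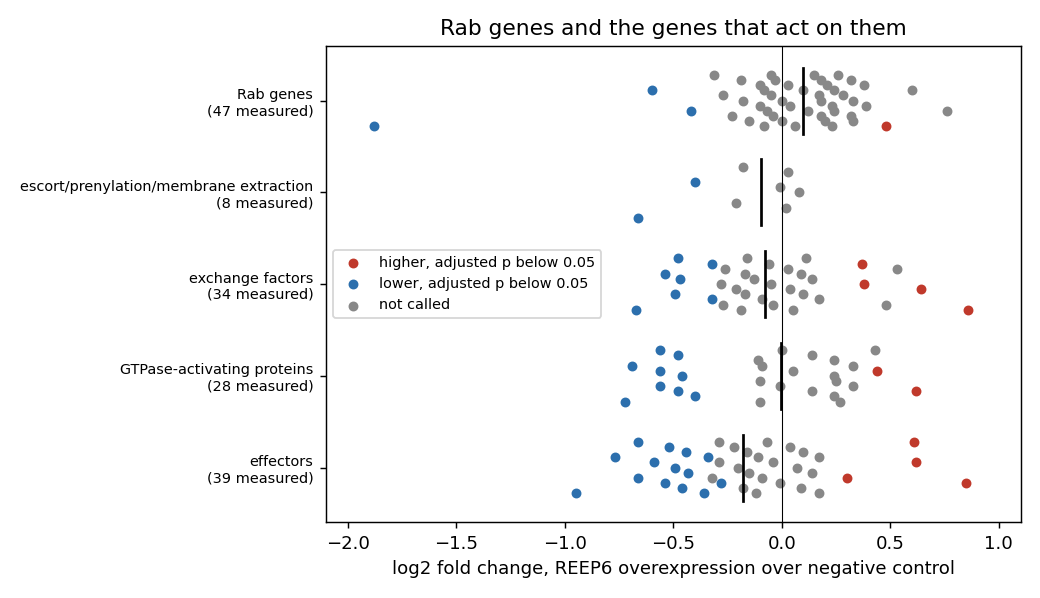
Log2 fold change (x axis, REEP6 overexpression over negative control) of each measured Rab gene and each measured gene of 4 lists of Rab regulators and effectors; colours give the edgeR call at an adjusted p of 0.05, black bars the median, and the vertical spread within a row has no meaning. Of the 39 effectors 14 were lower and 4 higher (46.2% called), while 4 of the 47 Rab genes were called (8.51%). Of all measured genes 25.1% were called.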

How the data were processed

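RNA of 4 SCC-15 libraries was analysed. The authors deposited a raw count and an FPKM value per gene and library. The submitters' processing notes list HISAT2, HTSeq 0.13.5 and GRCh38 without saying what each did. No annotation release or strand setting is stated, so reads of overlapping and antisense genes cannot be told apart. The deposited FPKM values use each library's own count total: dividing counts by FPKM gave the same gene length in every library for 100% of 29161 genes (relative tolerance 0.0001).

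Genes with at least 1 FPKM in at least 2 libraries (13077) were fitted with edgeR 4.0.16 in R 4.3.3 (TMM factors 0.986 to 1.01, quasi-likelihood, abundance trend, group term, 2 residual degrees of freedom). Tests were two-sided, adjusted by Benjamini-Hochberg over all genes at 0.05. The common biological coefficient of variation was 9.35%. Standard errors are the log2 fold change over the square root of F, and 95% intervals use the moderated degrees of freedom. Replicates differed by more than counting noise (chi-square per degree of freedom 5.68 with REEP6 and 9.58 in the control). On simulated counts the method recovered 58% of 1.5-fold changes, 94% of 2-fold changes and 96% of 3-fold changes, with 5 false calls. Changes below 1.5-fold were not simulated.

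All 64 Rab identifiers matched GENCODE release 29 (GRCh38), the source of gene coordinates. Alternatives were other scalings, filters, DESeq2 1.42.0, limma 3.58.1 on log2(FPKM + 1), leaving out each library, and the replicate number as a block. The members, role lists and marker lists were chosen with earlier results of these data known. Named were every called Rab gene, the 6 most abundant others, members below the filter, and of each list up to 4 called genes with the smallest p; further genes were picked after their values were seen. Other list genes enter the counts only, and a gene that this rule names is not reported here. The values of the remaining Rab genes complete the account of the family.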

Additional observations from a re-analysis of the deposited data

How the results depend on the processing

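RAB27B, RAB8B and RAB18 were called lower in every setting in which they were tested (RAB27B was not tested at a minimum of 5 FPKM), with log2 fold changes of -2.05 to -1.35, -0.73 to -0.48 and -0.55 to -0.35. The number of Rab genes called higher, 1 in the fit reported, was 0 with DESeq2, limma, equal FPKM sums, library totals or a minimum of 5 FPKM, 2 with median-of-ratios scaling or with TMM computed without the mitochondrial and 100 most abundant genes, 3 without a filter, and 0 to 3 without any 1 library. A replicate block gave 12 Rab genes higher and 6 lower, and 21 regulators and effectors higher and 41 lower. Among all genes the block gave 2957 higher and 3062 lower. Of the abundant Rab genes not called in the fit reported, the block called RAB10 (edgeR adjusted p 0.000315), RAB7A (0.000831) and RAB31 (0.032) higher and RAB1A (0.01) lower. With equal FPKM sums none of these genes was called, and their log2 fold changes were 0.10, 0.08, 0.01 and -0.32. The median of the Rab genes was then -0.03, beside 0.10 in the fit reported. The correlation of same-numbered deviations over genes was 0.216, but no label says what a replicate number stands for, and 2 pairs are too few to show a pairing from the data. Regulators and effectors called higher were 6 with equal FPKM sums, 3 with limma and 4 at a minimum of 5 FPKM, and limma called 20 lower. Without any 1 library 7 (without REEP6 replicate 2) to 11 were higher and 21 (without REEP6 replicate 1) to 29 lower, and 3 to 4 Rab genes were lower. With equal FPKM sums 661 of all genes were called higher and 2824 lower (19.0% of calls higher, beside 43.4% in the fit reported), 634 were higher with limma and 936 at a minimum of 5 FPKM, and without any 1 library 940 to 1495 were higher and 1272 to 1717 lower. In those fits the lone library of a group is assumed to vary like the other group's. The share of Rab genes called, 6.38% to 38.3%, was below the share of all genes in each of the 13 alternatives. The cause of these shifts was not tested. The 17 Rab genes below the filter had at most 82 counts in a library.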

Other observations

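The tables hold 6 further rows named after a Rab gene, 3 antisense RNAs and 3 read-through genes. RAB30-AS1 had 89 and 75 counts with REEP6, against 101 and 73 counts in the control, and RAB11B-AS1 had 5 and 18 counts with REEP6, against 8 and 20 counts in the control. Neither was called by edgeR (log2 fold changes 0.00 and -0.16). RAB6C-AS1 and the read-through genes RAB4B-EGLN2, ISY1-RAB43 and MIA-RAB4B had 0 counts in all 4 libraries.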
